A study of Mus musculus with 1 sample.

Results

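A set of 7 genes of the sympathoadrenal transcription factor network, Phox2a, Hand1, Hand2, Gata2, Gata3, Insm1 and Isl1, were followed across the cell classes of the mouse adrenal. They were chosen by name, and all 7 were found among the 32285 genes of the count matrix. The data are 1 single-cell library, made from the adrenal medulla of untreated wild-type mice aged 15 postnatal days. For it, 10 adrenals of 5 mice of both sexes were pooled after the excess cortex had been trimmed away by hand, so neither animals nor replicate libraries could be compared.

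Sympathoadrenal cells arise from the neural crest and give rise to sympathetic neurons and to the chromaffin cells of the adrenal medulla, which store and release catecholamines. Homeodomain factors act early in this lineage, and HAND, GATA, INSM1 and ISL1 proteins act with them to switch on the catecholamine enzymes. Chromaffin cells make noradrenaline with the enzymes TH, DDC and DBH, and the cells that also hold PNMT convert it to adrenaline.

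Phox2a, a homeodomain factor that activates Dbh, lies at chr7:101818313-101822726. Hand1, a basic helix-loop-helix factor, lies at chr11:57828713-57832147, and its paralog Hand2 lies at chr8:57320983-57324517. The zinc finger genes Gata2 and Gata3 lie at chr6:88193891-88207032 and chr2:9857078-9887953. Insm1, a zinc finger repressor of endocrine and neural precursors, lies at chr2:146221997-146225020. Isl1, a LIM-homeodomain factor, lies at chr13:116298270-116309688. These are whole gene spans of RefSeq in build GRCm38.p6, which is the mm10 build that the labels name.

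RefSeq windows upstream of the start were at hand for 5 of the 7 genes, 6 windows in all. The 250 bases before the start are shown for the gene with the largest difference between the 2 chromaffin types (Isl1), for another with a large difference (Gata2, from the more upstream of its 2 starts), for 1 with almost none (Phox2a), and for the gene that was also high outside chromaffin cells (Hand2). They run 5′ to 3′ on the strand of the gene, with build GRCm38.p6 positions chr13:116309689-116309938 (minus strand), chr6:88193641-88193890, chr7:101818063-101818312 and chr8:57320733-57320982 (plus strand). Capitals mark each match on either strand to 3 motifs. The core bound by zinc finger factors of this family was searched as GATAA. The E-box of helix-loop-helix factors was searched as CANNTG, and the homeodomain core was searched as TAAT.
Isl1: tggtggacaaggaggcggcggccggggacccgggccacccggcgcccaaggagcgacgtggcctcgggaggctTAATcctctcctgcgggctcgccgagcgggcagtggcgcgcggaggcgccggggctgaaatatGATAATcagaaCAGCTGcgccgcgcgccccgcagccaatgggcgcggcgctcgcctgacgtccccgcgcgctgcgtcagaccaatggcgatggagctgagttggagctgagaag
Gata2: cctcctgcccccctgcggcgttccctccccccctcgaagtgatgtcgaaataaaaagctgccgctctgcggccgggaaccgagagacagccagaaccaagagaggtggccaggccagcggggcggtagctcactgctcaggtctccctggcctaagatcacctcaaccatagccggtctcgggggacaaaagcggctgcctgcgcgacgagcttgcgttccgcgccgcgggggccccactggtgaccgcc
Phox2a: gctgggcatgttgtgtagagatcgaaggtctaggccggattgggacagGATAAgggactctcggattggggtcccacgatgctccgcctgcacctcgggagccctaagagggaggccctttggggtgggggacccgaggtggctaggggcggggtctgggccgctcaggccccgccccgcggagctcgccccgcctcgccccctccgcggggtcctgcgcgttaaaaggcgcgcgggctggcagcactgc
Hand2: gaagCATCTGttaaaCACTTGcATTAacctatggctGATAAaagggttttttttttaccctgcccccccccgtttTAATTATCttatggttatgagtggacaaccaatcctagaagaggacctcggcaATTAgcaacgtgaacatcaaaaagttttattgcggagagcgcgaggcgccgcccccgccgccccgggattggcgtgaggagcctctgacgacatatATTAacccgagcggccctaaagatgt

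The Hand2 window held 2 GATAA, 2 CANNTG and 5 TAAT matches, and 1 TAAT match overlapped a GATAA match by 1 base and another by 3 bases. The Isl1 window held 1 GATAA, 1 CANNTG and 2 TAAT matches, with 1 GATAA and TAAT pair overlapping, and the Phox2a window held 1 GATAA match. Neither Gata2 window nor the Gata3 window held any of the 3. Among all 32851 windows of this length, 22.6% held GATAA, 66.2% CANNTG, 54.9% TAAT and 12.1% all 3. A match is a run of letters and not a shown binding site. The Hand2 window was also the least GC-rich of the 6, at 49.2% against 67.2% to 74.0% in the others and a median of 52.4% over all windows. Its first 127 bases lie inside Hand2os1, a long noncoding RNA gene on the opposite strand, whose start is 124 bases upstream of that of Hand2.

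Levels below are counts of unique molecular identifiers (UMIs), each of which stands for 1 captured transcript, summed over the cells of a class and given per 1000000 UMIs of the class (CPM). The 3′ protocol counts 1 tag per transcript, so a CPM does not grow with gene length. Intervals in parentheses are exact 95% intervals, Poisson for levels, binomial for shares of cells and conditional binomial for ratios, and cover counting error only. With 1 library no test between samples was possible, and a difference is called here when the levels differed by at least 2-fold in a gene with at least 100 UMIs in both groups together.

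The matrix held 51421499 UMIs in 11214 barcodes, with 500 to 33809 UMIs in each, and 10139 cells passed the filters. Clusters were named from marker genes, and the 7 factors took no part in the clustering. The medulla gave 2734 cells in 8 clusters. They were adrenaline chromaffin-like cells (Pnmt in 96.0%, 1674 cells in 3 clusters, below adrenaline cells), noradrenaline chromaffin-like cells (Pnmt in 15.9%, 378 cells, below noradrenaline cells), cycling chromaffin-like cells (90 cells), transitioning-like cells with chromaffin and sustentacular markers together (416 cells in 2 clusters), and a cluster of 176 cells led by Scn7a, Col28a1 and Kcna1. That last cluster detected 3 of the 5 sustentacular markers in at least 50% of its cells, but none of them was among its leading genes and its median of 1136.5 UMIs a cell was below 1189, the sample median divided by 3, so it is called the Scn7a-led cluster and given no cell type. It also detected 2 of 6 fibroblast markers in at least 50% of its cells, while 3 of the 6 were seen in none of its cells. The 6 summed to 2228 CPM against 5.15 CPM in adrenaline cells, and their part in the results for this cluster was not tested. Outside the medulla were 3722 cortex-like, 2149 endothelial-like, 675 immune-like, 43 lymphocyte-like and 90 fibroblast-like cells, and 726 cells of clusters with markers of several types, 65.0% of them called doublets, were left out. Median depth ran from 1136.5 UMIs in the Scn7a-led cluster to 5550.5 in cycling cells.

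All 7 factors were far higher in chromaffin cells (adrenaline and noradrenaline together, 2052 cells) than in the 6679 cells outside the medulla. Isl1 stood at 120 CPM (113 to 127) in chromaffin cells and 0.465 CPM (0.260 to 0.767) outside, a ratio of 258 (156 to 463). The ratio was 292 (202 to 441) for Hand1, 155 (122 to 200) for Phox2a, 146 (127 to 169) for Hand2 and 140 (82.7 to 258) for Insm1. The 2 GATA genes had the smallest ratios, 77.6 (64.7 to 93.8) for Gata3 and 38.0 (33.0 to 43.9) for Gata2. All 7 were past 2-fold, as were 17.2% of the 12177 genes compared in this direction. Across the alternative settings the lowest of the ratios was 24.5, for Gata2, while that of Hand1 ranged from 112 to 547 and that of Insm1 from 48.1 to 399.

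**Figure D1:**
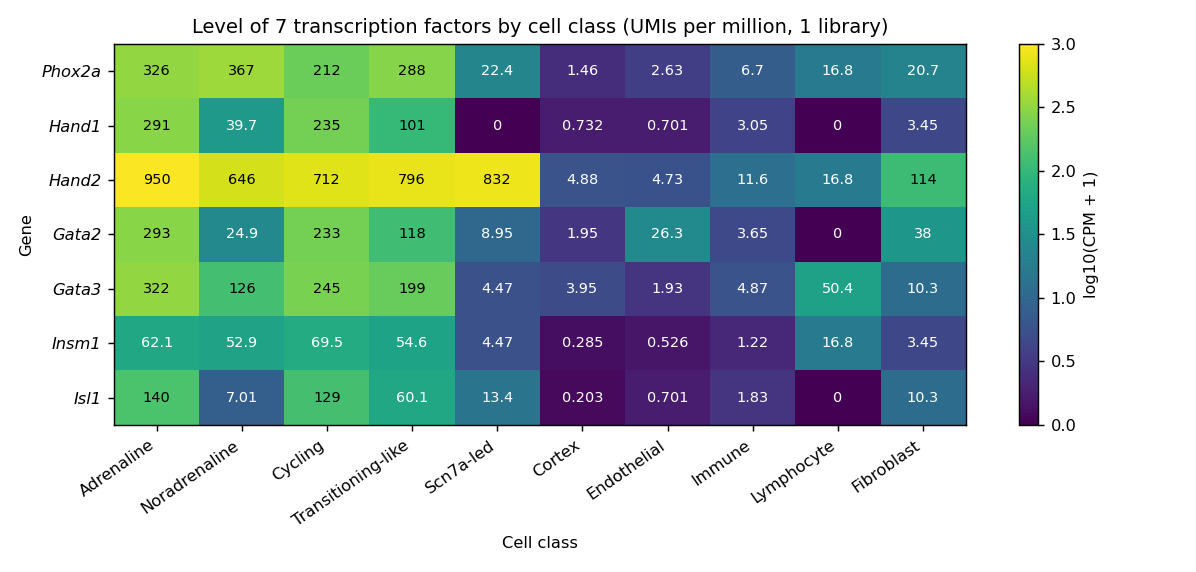
Level of each factor (rows) in each of 10 cell classes (columns), in CPM, with the color on a log10(CPM + 1) scale and the CPM printed in each cell. Adrenaline and cycling cells are high for all factors, and noradrenaline and transitioning-like cells for all but Hand1, Gata2 and Isl1. For these, noradrenaline cells are low and transitioning-like cells lie between noradrenaline and adrenaline cells. Hand2 alone is high in the Scn7a-led cluster.

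Almost every chromaffin cell carried a UMI of at least 1 factor, 98.9% of adrenaline and 90.5% of noradrenaline cells, against 5.88% of cortex-like cells (median depth 5336 UMIs) and 8.79% of endothelial-like cells (median depth 2004 UMIs, chromaffin cells 3009.5). With each cell thinned to 1000 UMIs the shares were 89.0% and 65.6% in the 2 chromaffin types and 1.53% and 3.91% in cortex-like and endothelial-like cells. The trait was not limited to chromaffin cells. At least 1 factor was also seen in 98.3% of transitioning-like cells (74.2% thinned) and 23.3% of fibroblast-like cells (15.5% thinned). In the Scn7a-led cluster the share was 64.8% (53.3% thinned), and a Hand2 UMI alone was in 61.4% of its cells. The median adrenaline cell showed 4 of the 7 factors and the median noradrenaline cell 2, and after thinning 2 and 1. All 7 were seen together in 87 adrenaline cells (5.20%), in 8 cycling cells (8.89%), in 7 transitioning-like cells (1.68%) and in 1 noradrenaline cell (0.265%). These counts depend on depth, which was highest in cycling cells (median 5550.5 UMIs), and after thinning no cell of these classes showed all 7.

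Phox2a was similar in both chromaffin types. It stood at 326 CPM (314 to 340) in adrenaline cells, where 66.5% of cells had a UMI, and at 367 CPM (334 to 401) in noradrenaline cells, where 60.1% had one. After thinning, both shares were 29.6%, and 0.605% of endothelial-like cells (0.375% thinned) had a Phox2a UMI. Transitioning-like cells followed at 288 CPM (267 to 309) and cycling cells at 212 CPM (176 to 253). The Scn7a-led cluster held 5 Phox2a UMIs (22.4 CPM, 7.26 to 52.2), a level it shared within error with fibroblast-like cells (20.7 CPM from 6 UMIs).

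Hand1 and Hand2, which form dimers with the E proteins encoded by Tcf3, Tcf4 and Tcf12, behaved differently from each other. Hand1 stood at 291 CPM in adrenaline cells (278 to 303), 235 CPM in cycling cells (197 to 278), 101 CPM in transitioning-like cells (88.6 to 114) and 39.7 CPM in noradrenaline cells (29.6 to 52.2). No 2 neighbours in that order had overlapping intervals, though the facing ends of the first 2 intervals were less than 1 CPM apart. The Scn7a-led cluster held no Hand1 UMI in 223482, where 3 counts would be 13.4 CPM and the exact interval reaches 16.5 CPM. A Hand1 UMI was seen in 56.8% of adrenaline and 8.47% of noradrenaline cells (23.6% and 3.10% thinned), against 0.186% of endothelial-like cells (0.0536% thinned).

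Hand2 was high in all 5 medullary classes. It stood at 950 CPM (928 to 972) in adrenaline cells, 832 CPM (717 to 961) in the Scn7a-led cluster, 796 CPM (762 to 832) in transitioning-like cells, 712 CPM (645 to 785) in cycling cells and 646 CPM (603 to 692) in noradrenaline cells. Each level overlapped its neighbour in this order within counting error. A Hand2 UMI was found in 89.8% of adrenaline, 71.2% of noradrenaline and 61.4% of Scn7a-led cells (57.2%, 40.0% and 49.2% thinned), and in 1.16% of endothelial-like cells (0.643% thinned). Of the UMIs of the 2 Hand genes together, Hand1 took 23.4% in adrenaline cells and 5.79% in noradrenaline cells.

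Gata2 and Gata3, paralogs whose proteins bind the same core sequence, were both higher in adrenaline cells. Gata2 stood at 293 CPM (280 to 305) in adrenaline cells, 233 CPM (195 to 276) in cycling cells and 118 CPM (105 to 132) in transitioning-like cells. Fibroblast-like cells (38.0 CPM, 18.9 to 67.9), endothelial-like cells (26.3 CPM, 22.3 to 30.9) and noradrenaline cells (24.9 CPM, 17.0 to 35.2) came next and overlapped. Gata3 stood at 322 CPM (310 to 336) in adrenaline cells, 245 CPM (206 to 289) in cycling cells, 199 CPM (182 to 217) in transitioning-like cells and 126 CPM (107 to 147) in noradrenaline cells, where only the middle pair overlapped. Gata2 therefore took 47.6% of the UMIs of the pair in adrenaline cells and 16.5% in noradrenaline cells. A Gata3 UMI was found in 60.9% of adrenaline and 28.8% of noradrenaline cells (25.6% and 9.86% thinned), against 0.512% of endothelial-like cells (0.161% thinned). For Gata2 the shares were 57.1% and 6.08% (22.9% and 2.54% thinned), against 1.16% of cortex-like cells (0.215% thinned). In endothelial-like cells the Gata2 share, given further below, was about that of noradrenaline cells, both from all UMIs and thinned.

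Insm1 differed little among the chromaffin and transitioning-like cells. Its levels in cycling cells (69.5 CPM, 49.7 to 94.6), adrenaline cells (62.1 CPM, 56.6 to 68.1), transitioning-like cells (54.6 CPM, 45.9 to 64.5) and noradrenaline cells (52.9 CPM, 41.1 to 67.1) all overlapped. Isl1 had the largest ratio of highest to lowest level over these 4 classes. It stood at 140 CPM (131 to 148) in adrenaline cells and 129 CPM (101 to 161) in cycling cells, which overlapped, at 60.1 CPM (51.0 to 70.4) in transitioning-like cells and at 7.01 CPM (3.20 to 13.3) in noradrenaline cells. An Isl1 UMI was found in 38.9% of adrenaline cells but in 9 of 378 noradrenaline cells (2.38%), and in 12.4% and 0.282% after thinning, against 0.186% of endothelial-like cells (0.107% thinned).

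**Figure D2:**
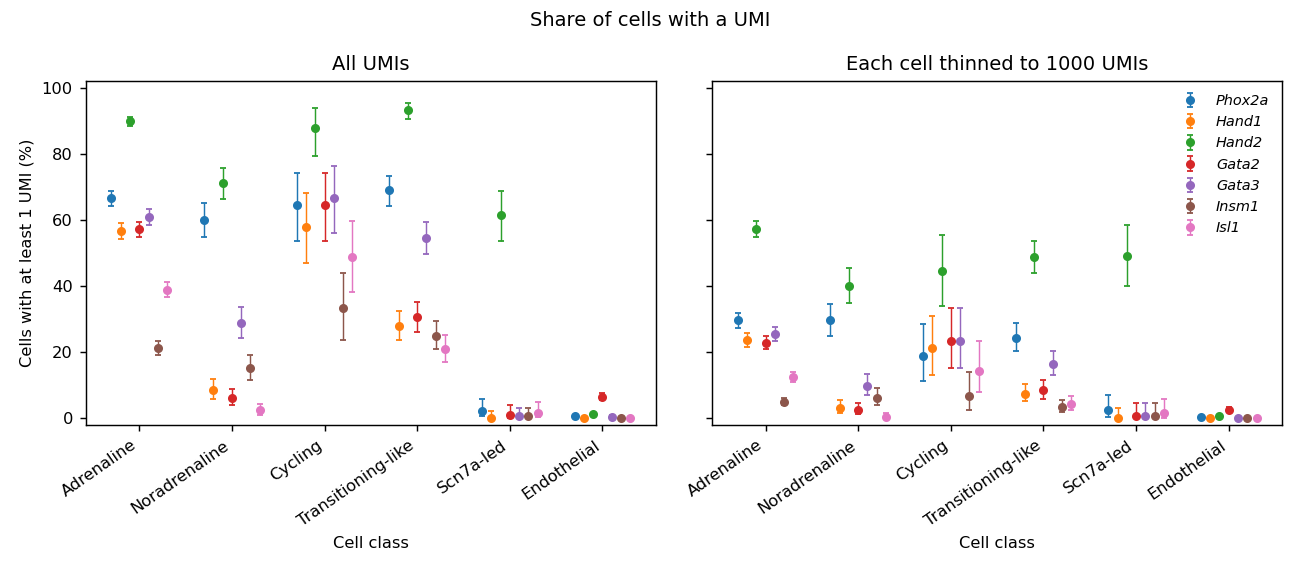
Share of cells with at least 1 UMI of each factor (percent, y axis) in 5 medullary classes and in endothelial-like cells (x axis), from all UMIs on the left and with each cell thinned to 1000 UMIs on the right, with exact binomial 95% intervals. Thinning lowers every share outside the Scn7a-led cluster, and Hand1, Gata2 and Isl1 stay lower in noradrenaline than in adrenaline cells at equal depth. In the Scn7a-led cluster, where thinning leaves out 56 of 176 cells, the shares of Phox2a (2.27% to 2.50%), Gata3 and Insm1 (both 0.568% to 0.833%) rise. That of Hand1 stays at 0 there.

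The comparison of the 2 chromaffin types asked whether the factors follow the split between adrenaline and noradrenaline. Of the 7, 4 were at least 2-fold lower in noradrenaline cells and none was at least 2-fold higher. Among all 7809 genes compared, 5.25% were lower and 3.79% higher by that measure. Isl1 was 19.9-fold higher in adrenaline cells (10.5 to 43.7), Gata2 11.7-fold (8.29 to 17.2), Hand1 7.32-fold (5.55 to 9.86) and Gata3 2.56-fold (2.18 to 3.02). Hand2 was 1.47-fold higher in adrenaline cells (1.37 to 1.58), short of the 2-fold mark but beyond counting error. Insm1 differed by 1.17-fold (0.908 to 1.54), an interval that includes no difference, and Phox2a was 1.12-fold higher in noradrenaline cells (1.02 to 1.24), a direction that turned when cells were thinned to 1000 UMIs (0.975). For scale, Pnmt itself was 66.6-fold higher in adrenaline cells (58.4 to 76.2). The share of cells with Pnmt set the names of these clusters, so that difference follows from the naming.

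The noradrenaline cells were also divided by whether they held a Pnmt UMI. In the 318 noradrenaline cells with no Pnmt UMI, Gata3 stood at 125 CPM (105 to 148) and Phox2a at 366 CPM (331 to 404), close to the values of the whole class. Hand1 stood there at 32.0 CPM (22.3 to 44.6), Gata2 at 20.1 CPM (12.6 to 30.5) and Isl1 at 4.58 CPM (1.49 to 10.7). In the 60 cells with a Pnmt UMI the corresponding levels were 83.2, 52.0 and 20.8 CPM, from 16, 10 and 4 UMIs.

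From Xist and Y-linked transcripts a sex could be assigned to 40 and 123 noradrenaline cells (female and male) and 281 and 679 adrenaline cells. Hand1, Gata2, Gata3 and Isl1 were higher in adrenaline cells in both sexes. Gata3 was 1.91-fold higher in female and 3.14-fold higher in male cells, so that in female cells it fell short of 2-fold. Hand1 differed by 28.6-fold in female and 6.02-fold in male cells, and Isl1 by 10.3-fold and 72.1-fold, where the noradrenaline level rests on 2 and 25 UMIs for Hand1 and 3 and 1 UMIs for Isl1. When cells took their names 1 by 1 from the marker UMIs they held and not by cluster, the excess in adrenaline cells fell to 3.97-fold for Isl1, 4.39-fold for Hand1 and 1.82-fold for Gata3, which ended the call for Gata3. That of Gata2 (0.0851 as the ratio of noradrenaline to adrenaline cells) also fell by over 1.5 times and stayed past 2-fold.

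**Figure D3:**
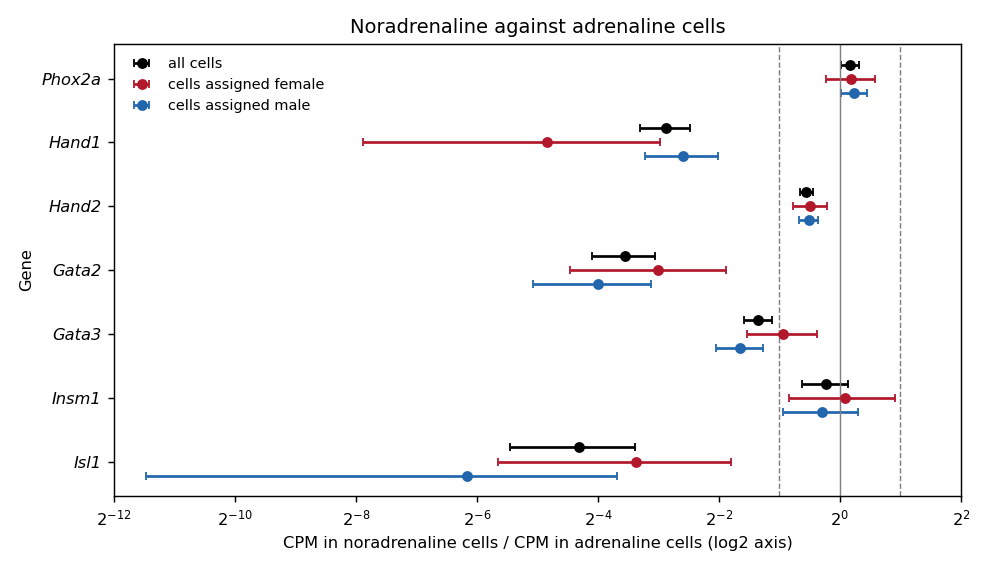
Level in noradrenaline cells divided by that in adrenaline cells for each factor (x axis, log2 scale) with exact conditional 95% intervals, for all cells and for cells assigned female or male. Dashed lines mark 2-fold. Isl1, Gata2 and Hand1 lie left of the dashed line in all 3 sets, while Phox2a, Insm1 and Hand2 lie between the lines.

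The 3 adrenaline clusters differed less among themselves. The largest (868 cells, median depth 4972.5 UMIs), the second (699 cells, 2221 UMIs) and the smallest (107 cells, 2795 UMIs, led by the stress-response genes Atf3 and Egr3) held Isl1 at 146, 117 and 148 CPM and Insm1 at 63.3, 59.5 and 57.0 CPM. Gata2 stood at 317 CPM (302 to 333) in the largest and 214 CPM (192 to 238) in the second. Hand1 was highest in the smallest cluster, at 394 CPM (334 to 461) against 282 CPM (268 to 296) in the largest. Phox2a ran the other way from Gata2, at 301 CPM (287 to 317) in the largest and 396 CPM (366 to 428) in the second. None of these differences reached 2-fold.

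The transitioning-like cells asked at what level the factors stand in cells that carry sustentacular and chromaffin markers together. Against all chromaffin cells, Hand1 (ratio 0.397, 0.347 to 0.452) and Gata2 (0.468, 0.413 to 0.528) were at least 2-fold lower, while 1.38% of 8741 genes were. Isl1 lay just inside the mark at 0.501 (0.420 to 0.595). Gata3 stood at 0.678 (0.615 to 0.746), Phox2a at 0.865 (0.797 to 0.938), Hand2 at 0.880 (0.838 to 0.924) and Insm1 at 0.899 (0.740 to 1.09). Of these cells, 2 were called doublets (0.481%), and the 5 sustentacular markers, genes of the glia-like support cells of the medulla, summed to 507 CPM against 8.82 CPM in adrenaline cells. Their median depth was 5152 UMIs, against 3161.5 in adrenaline and 2632.5 in noradrenaline cells, and the part of doublets that escaped the call was not tested. The 6 fibroblast markers summed to 277 CPM in transitioning-like cells, against 5.15 CPM in adrenaline cells. Of the 6, 2 were seen in at least 25% of the cells and the highest in 44.2%, while 2 were seen in no cell. The part of the fibroblast markers in these results was not tested. In the 123 transitioning-like cells with at least 2 Pnmt UMIs per 1000 the ratios were 0.892 for Hand1, 1.13 for Gata2 and 1.22 for Isl1, and in the other 293 cells 0.158, 0.147 and 0.155.

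These ratios mixed a cluster of 325 cells with Pnmt in 30.2% of cells (transitioning noradrenaline-like) and one of 91 cells with Pnmt in all (transitioning adrenaline-like). Each cluster was therefore also compared with the chromaffin type of the same kind. The cluster of 91 cells was led by Agrp, Ly6h and Snhg11, and none of the listed sustentacular markers was among its leading genes. In the cluster of 325 cells Fabp7 was among them. In the transitioning noradrenaline-like cluster none of the 6 factors with enough UMIs was 2-fold apart from noradrenaline cells (background 3% of 4635 genes in either direction). Gata2 came nearest at 43.9 CPM, a ratio of 1.76 (1.16 to 2.74), and Isl1, with too few UMIs for a call, stood at 40 UMIs against 9, a ratio of 3.02 (1.44 to 7.08). Pnmt was 4.48-fold higher there than in noradrenaline cells (3.89 to 5.18), and its part in the Gata2 and Isl1 values was not tested. In the transitioning adrenaline-like cluster none of the 7 factors was 2-fold apart from adrenaline cells (background 3.37% of 7565 genes). Phox2a was the farthest, at 211 CPM (177 to 249) and a ratio of 0.645 (0.540 to 0.766), and Hand2 the nearest, at 0.987 (0.907 to 1.07).

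Between the 2 transitioning-like clusters the split of the mature types was seen again. Isl1 was 8.15-fold lower, at 21.2 CPM (15.1 to 28.8) against 172 CPM (142 to 207), in the noradrenaline-like one, Gata2 7.58-fold (5.86 to 9.88) and Hand1 4.58-fold (3.54 to 5.95). These 3 were past 2-fold downward, as were 2.24% of 3975 genes. Gata3 was 1.65-fold lower (1.37 to 1.98), short of the mark, and Phox2a 1.49-fold higher (1.24 to 1.81).

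**Figure D4:**
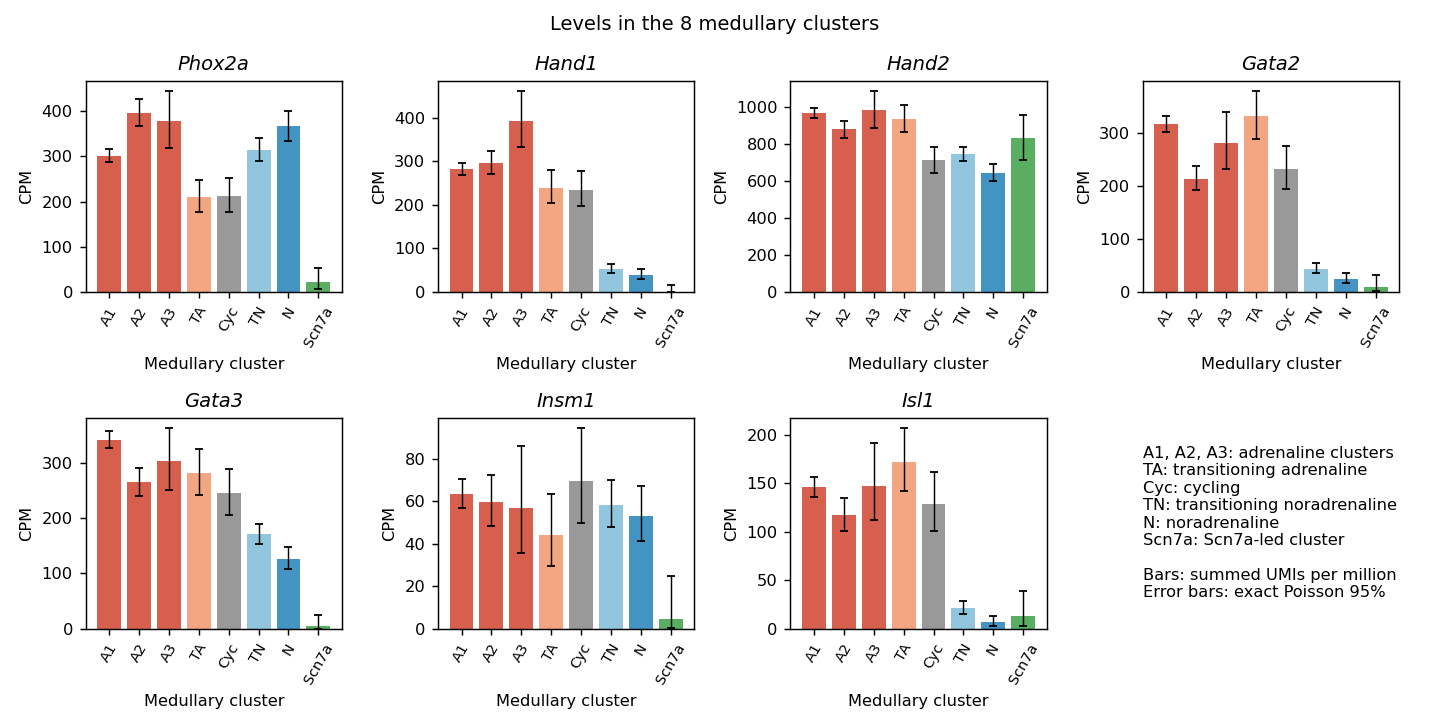
Level of each factor (CPM, y axis from 0) in the 8 medullary clusters (x axis), with bars for levels from summed UMIs and exact Poisson 95% intervals. Hand1, Gata2 and Isl1 are low in the noradrenaline and transitioning noradrenaline-like clusters, Phox2a and Insm1 are not, and Hand2 is high in all 8.

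In the Scn7a-led cluster, 6 of the 7 factors were at least 2-fold below chromaffin cells, as were 22.2% of 7968 genes, and Hand2 was not. Hand2 stood at 832 CPM from 186 UMIs, 0.920 times its chromaffin level (0.791 to 1.06) and 134 times its level outside the medulla (109 to 165). Among the 95 cells of this cluster with no UMI of any chromaffin marker it stood at 829 CPM (667 to 1019), with a Hand2 UMI in 62.1% of cells. The other factors were close to absent. Hand1 had no UMI and was 18.9-fold lower than in chromaffin cells at a floor of 3 counts over the cluster. By the exact interval Hand1 was at least 15.3-fold lower. The rest had 1 to 5 UMIs, with ratios of 0.0153 (0.000386 to 0.0851) for Gata3, 0.0354 (0.00428 to 0.128) for Gata2, 0.0673 (0.0218 to 0.157) for Phox2a, 0.0737 (0.00186 to 0.412) for Insm1 and 0.112 (0.0231 to 0.328) for Isl1. With the cells split by sex, Insm1 had no UMI among the 22 female or the 26 male cells of the cluster, and Isl1 none among the male ones, so the ratios set by the 3-count floor were 1.16 and 1.64 for Insm1 and 0.804 for Isl1 and these calls were lost. The catecholamine and granule genes Chga, Th, Dbh, Ddc and Pnmt had ratios from 0.0144 (Pnmt) to 0.118 (Ddc) in the same cells, so the 5 factors with 1 to 5 UMIs lay within the range of these genes. Hand2os1, the neighbour that starts upstream of Hand2 on the other strand, reached 975 CPM (850 to 1114) here, against 637 CPM (620 to 654) among chromaffin cells, a ratio of 1.53 (1.33 to 1.75). Both genes of the Hand2 locus were thus high in cells where the other factors were near the floor.

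The cycling cells, with Cenpf, Prc1 and Ube2c among their leading genes, kept all 7 factors. None was 2-fold apart from the other chromaffin cells, while 7.6% of 8084 genes were apart in either direction. Phox2a was lowest, at 0.638 times (0.528 to 0.765), followed by Hand2 at 0.787 (0.711 to 0.870) and Gata3 at 0.835 (0.700 to 0.990). Gata2 at 0.921 (0.768 to 1.10), Hand1 at 0.926 (0.772 to 1.10), Isl1 at 1.07 (0.835 to 1.36) and Insm1 at 1.14 (0.808 to 1.58) had intervals that include no difference. Pnmt was seen in 91.1% of cycling cells, while the other chromaffin cells include noradrenaline cells, which are low for Hand1, Gata2 and Isl1. Against adrenaline cells alone, cycling cells were lower for Hand1 (235 against 291 CPM) and Gata2 (233 against 293 CPM), and also for Phox2a, Hand2 and Gata3. The intervals of these levels, given above, did not overlap, while those of Isl1 and Insm1 did.

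Outside the medulla the factors were set beside Chga, Th, Dbh, Ddc and Pnmt, genes of chromaffin cells, whose levels there serve as a scale. In endothelial-like cells these 5 genes stood at 0.259% to 0.762% of their chromaffin levels, and 6 of the 7 factors at 0.277% to 0.866%. Gata2, known to be active in endothelium, stood apart at 10.4% (8.75 to 12.3). Its 150 UMIs were spread over all 3 endothelial-like clusters, at 21.6, 22.1 and 30.5 CPM, and in the 1522 endothelial-like cells with no chromaffin marker UMI it was still at 26.6 CPM (21.6 to 32.3). A Gata2 UMI was seen in 6.51% of endothelial-like cells (2.62% thinned), against 1.16% of the deeper cortex-like cells.

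In cortex-like cells the 5 genes stood at 0.256% to 0.842% of their chromaffin levels, and Gata3 was the only factor above them, at 1.35% (1.09 to 1.65). This is a level of 3.95 CPM (3.20 to 4.81), seen in 2.42% of cells, and of 3.82 CPM (2.82 to 5.05) in the 2183 cells with no chromaffin marker UMI. It was 5.63 and 5.33 CPM in 2 of the 4 cortex-like clusters and 1.56 and 2.54 CPM in the others. The remaining factors stood at 0.170% (Isl1) to 0.772% (Gata2). In lymphocyte-like cells 3 Gata3 UMIs were found in 43 cells (50.4 CPM, 10.4 to 147), all in cells with no chromaffin marker UMI, and GATA3 is known as a factor of T cells.

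In fibroblast-like cells the 5 genes were themselves high, at 3.36% to 9.02%, and Hand2 (12.6%, 8.66 to 17.7) and Gata2 (15.0%, 7.48 to 26.9) lay above that range. These cells also held all 7 endothelial markers in 28.9% to 62.2% of cells, at a summed 4195 CPM against 3164 CPM for the 6 fibroblast markers, and the part of this in the Gata2 level was not tested. Among the 53 fibroblast-like cells with no chromaffin marker UMI, 6 Hand2 UMIs (39.1 CPM, 14.3 to 85.0) and 1 Gata2 UMI were left. In immune-like cells, of which 13.3% were called doublets, the factors stood at 1.20% to 2.02% and the 5 genes at 0.452% to 1.38%, from at most 19 UMIs for any factor.

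**Figure D5:**
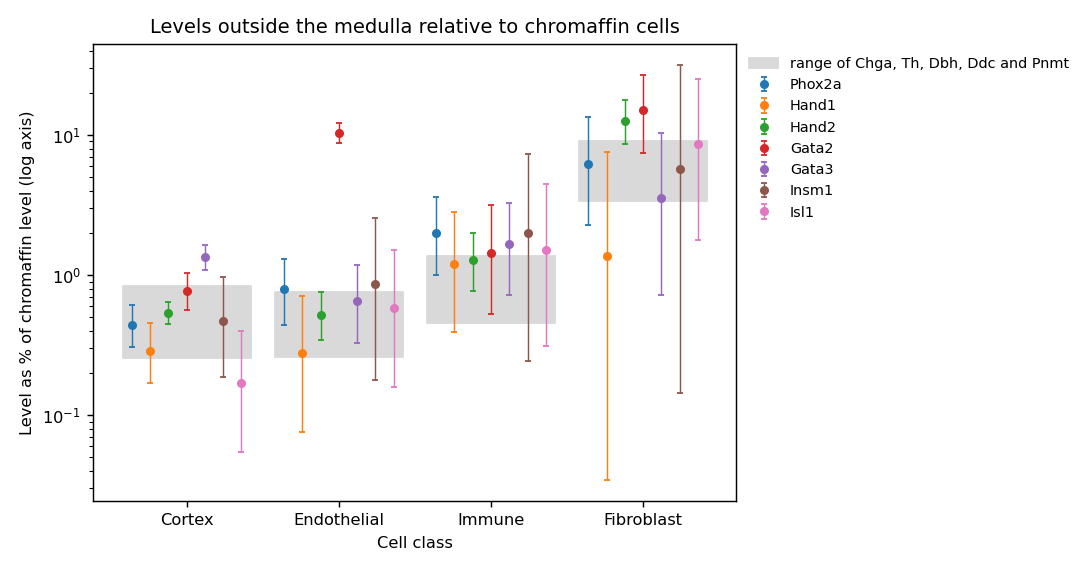
Level of each factor outside the medulla as a percent of its level in chromaffin cells (y axis, log scale) in 4 cell classes, with exact 95% intervals, and the range of Chga, Th, Dbh, Ddc and Pnmt as a gray band. Gata2 in endothelial-like cells, at 10.4%, is the farthest from its band.

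Whether the factors were seen in the same cells was described at equal depth. In 1663 adrenaline cells thinned to 1000 UMIs, the share of cells with 1 factor was compared between cells with and without another, for 21 pairs. The difference ran from -1.33 to 5.41 percentage points, with a median of 0.360. The largest was Hand2 in cells with Phox2a (61.1%) and without (55.6%). Among 414 transitioning-like cells the differences ran from -8.22 to 17.0 points, and among 355 noradrenaline cells, where several factors are rare, from -13.1 to 6.77.

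Over the 21 clusters with at least 50 cells, among them 3 (273, 214 and 92 cells) with markers of several types that were left out of the classes above, the levels of the 7 factors on a log2(CPM + 10) scale had Pearson correlations of 0.795 (Hand2 and Gata2) to 0.988 (Phox2a and Insm1). These are descriptions of 21 points from 1 library, and all 7 genes were chosen as chromaffin factors. By a rule of the highest correlation among 9752 genes, Hand2os1 was most like Hand2 (r = 0.995), followed by the granule gene Scg3. Syt4 and Gng3 were most like Phox2a, Rab3b and AW551984 most like Gata3, Usp51 and 4930452B06Rik most like Hand1, and Lgr5 and Eef1a2 most like Insm1. Pcdh10 and Lrp1b were most like Isl1, ahead of the noradrenaline transporter gene Slc6a2, and Tmem158 and Nebl most like Gata2, followed by Cplx2, a gene of vesicle release.

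Other factors of the lineage and relatives of the 7 made a list of 21 genes, of which 12 had enough UMIs for the comparison of chromaffin cells with cells outside the medulla. Of these, 8 were at least 2-fold higher in chromaffin cells, 3 were lower and 1 was neither, with a median log2 ratio of 6.75 against -0.16 over all genes compared. Among those 12177 genes 17.2% were higher and 24.8% lower, so the count of lower factors was near the share over all genes. Tfap2b (175 CPM, ratio 226), Tbx20 (166 CPM, 191) and Tlx2 (165 CPM, 190) were among the higher ones, with St18, Myt1, Eya1 and Insm2 at ratios of 105 to 142 and Prox1 at 2.47. Gata6, which marks other lineages (0.924 CPM against 126), Rest, a repressor of neuronal genes (0.578 against 66.8), and Tbx3 (57.4 against 118) were lower.

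Between the chromaffin types, 2 of the 9 listed factors with enough UMIs were higher in noradrenaline cells and 3 lower. Among all 7809 genes compared, 3.79% were higher and 5.25% lower. Tlx2, at 377 CPM in noradrenaline and 128 CPM in adrenaline cells, had a ratio of 2.94 (2.63 to 3.28) and St18 of 2.05 (1.69 to 2.47). Tfap2b at 0.328 (0.259 to 0.409) and Prox1 at 0.431 (0.348 to 0.530) were lower. Insm2, the paralog of Insm1, had 198 UMIs in adrenaline cells and none in noradrenaline cells. It was 11.5-fold lower with the empty count set to 3, and at least 9.26-fold lower by the exact interval. Insm1 was not 2-fold apart.

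Genes for partner proteins made a list of 18, of which 17 could be compared between chromaffin cells and cells outside the medulla. 4 were higher in chromaffin cells, 5 were lower and 8 were neither, with a median log2 ratio of 0.06 against -0.16 over all genes compared. Of all genes compared, 17.2% were higher and 24.8% lower, so both counts were near the shares over all genes. The genes past 2-fold are therefore given 1 by 1 and not as a result for the list. Zfpm1, which encodes the GATA partner FOG1, stood at 69.8 CPM against 18.9 (ratio 3.69, 3.29 to 4.13). The LIM-domain binding gene Ldb1, whose protein bridges ISL1, had a ratio of 2.32 (1.86 to 2.89), the LIM-only gene Lmo1 of 10.2 (8.80 to 11.7) and Rcor2, of the corepressor complex that INSM1 recruits, of 8.54 (5.53 to 13.5). Lmo4 (3.58 against 221 CPM), Ldb2, Lmo2, Lyl1 and Tal1 were lower. The E protein genes Tcf3, Tcf4 and Tcf12 were at ratios of 0.708 to 1.65 and none was past 2-fold.

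Between the chromaffin types 10 partner genes could be compared, and 2 were past 2-fold, both lower in noradrenaline cells. Among all 7809 genes compared, 5.25% were lower and 3.79% higher. They were Lmo1 (21.8 against 93.7 CPM, ratio 0.233, 0.153 to 0.339) and Zfpm1 (35.8 against 75.7 CPM, ratio 0.473, 0.342 to 0.640). Kdm1a, Hdac1, Hdac2 and Rcor1, whose proteins act with INSM1, had ratios of 1.02 to 1.40. Tcf4 was 1.88-fold higher in noradrenaline cells (1.75 to 2.03).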

How the data were processed

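The sample was a pool of dissociated adrenal medulla run as a single 10x 3′ library. The authors deposited UMI counts per gene and barcode, made with Cell Ranger 4.0.0 against mm10 per the labels, and no scaling was found in them. From these counts, cells with 500 to 5000 genes and at most 20% mitochondrial UMIs were kept and clustered with Seurat 5.3.0 (2000 variable features without the factors and listed genes, 10 principal components, resolution 0.4). The medullary cells were then clustered again. A cluster took a name when at least 3 markers were found in 50% of its cells (25% for the sustentacular, cycling and lymphocyte lists). Scrublet (scanpy 1.11.5) called 669 doublets (6.60%), which were kept outside the mixed clusters. Levels were summed UMIs per 1000000 UMIs, with exact Poisson, Clopper-Pearson and conditional binomial intervals from scipy 1.17.1, and the fold step was tested on simulated data. The genes named were the 7 factors, the members of 2 lists past 2-fold, and for each factor the 3 genes most correlated with it over clusters with at least 50 cells, of which the first ones are given. The factors, lists and rules were chosen with earlier results of these data known, and a listed gene is not reported here. Upstream windows came from RefSeq in GRCm38.p6. Alternatives varied resolution, components, filters, doublets, naming per cell, depth, averaging, sex of cells and the division of transitioning-like cells.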

Additional observations from a re-analysis of the deposited data

How the results depend on the processing

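Of 392 ratios recomputed under 14 alternative settings, 298 lay within the interval of the reported value, 91 lay outside it, and 3 that had been past 2-fold changed direction. Of the ratios that did not count among these 3, 15 lay on the other side of 1 from the reported value. Insm1 in the Scn7a-led cluster went from 0.0737 to 1.16 in female cells (22 cells of the cluster) and 1.64 in male cells (26 cells), both set by the 3-count floor since no Insm1 UMI was seen. In male cells Isl1 was also at 0 there and, at the floor, went from 0.112 to 0.804. With transitioning-like cells limited to those with at least 2 Pnmt UMIs per 1000, the ratio of Gata2 to chromaffin cells became 1.13 and the count of factors past 2-fold went from 2 to 0. The share of chromaffin cells with any factor was 97.4%, and became 81.3% when at least 2 UMIs were asked for and 84.9% after thinning. The stricter filter on genes and mitochondrial UMIs gave no Scn7a-led cluster and a resolution of 0.2 no fibroblast-like or lymphocyte-like class, so those values could not be computed. No paired analysis was possible because there is 1 library.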

Other observations

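In the Scn7a-led cluster, 9 of the 21 other lineage factors had enough UMIs for a comparison with chromaffin cells, and 6 of them were at least 2-fold lower, among them Tfap2b with 1 UMI (ratio 0.0255, 0.000645 to 0.142) and Prox1 with 2 (ratio 0.0553). None was higher by that measure. Of the 11 partner genes compared, 1 was higher and 3 were lower. Among all 7968 genes compared for this cluster 22.2% were lower, so the count of lower partner genes was near that share. The higher one was Lmo4, a LIM-only gene whose protein competes for LDB1, at 443 CPM against 3.58 CPM in chromaffin cells, and the lower ones were Tcf3, Zfpm1 and Lmo1, each with 2 UMIs. For Tcf3 the ratio was 0.360 (0.0434 to 1.32), an interval that includes no difference. Lmo4 was also past 2-fold upward in transitioning-like cells. For neither comparison was a share of higher genes over all genes drawn up, so the upward calls have no background beside them. Rest, which had too few UMIs for a call, stood at 80.5 CPM from 18 UMIs in the Scn7a-led cluster and 0.578 CPM from 5 UMIs in chromaffin cells.

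Between the transitioning-like clusters, 7 of the other factors had enough UMIs. Tlx2 was at least 2-fold higher in the noradrenaline-like one and Tfap2b was lower, as between the chromaffin types. Of all 3975 genes compared, 2.24% were lower, and no share was drawn up for the higher direction. In cycling cells none of the 9 other factors with enough UMIs was 2-fold apart. Of 10 partner genes 1 was, the E protein gene Tcf3, which was higher, while 7.6% of 8084 genes were apart in either direction.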
